A study of Mus musculus with 2 samples.

Results

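Integrin and laminin chain genes were examined in nuclei of mouse heart. The set has 36 of the 32589 genes in the tables, chosen by gene symbol and not by any measured value: 18 integrin α chains, 8 integrin β chains and 10 laminin chains. The study compared 1 library of hearts from mice injected with PBS (Control) with 1 library of hearts from mice that received a PD-1 inhibitor, the InVivoPlus antibody to mouse PD-1. The animals were male C57BL/6 mice of 8 weeks at the first injection, and both groups are otherwise untreated wild-type mice as far as the sources say. The antibody was given intraperitoneally at 5 mg/kg on days 1 and 14, PBS on the same days, and hearts were taken on day 28. Nuclear RNA was read with the GEXSCOPE single nucleus kit, which counts unique molecular identifiers (UMIs), so each UMI stands for 1 captured RNA molecule. The number of hearts pooled into a library is not given in the sources used here. With no replicate library, no difference between the groups has a replicate error and no test was possible, so the 95% intervals below cover counting error only.

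Integrins are receptors made of 1 α and 1 β chain that hold cells to the extracellular matrix or to other cells. The α chain sets much of the ligand choice: some α chains pair with β1 to bind collagen, others bind laminin, others recognise the RGD tripeptide of fibronectin and vitronectin, and a leukocyte group pairs with β2 or β7. Laminins are cross-shaped trimers of an α, a β and a γ chain that build the basement membrane around cardiomyocytes, vessels and mesothelium. In the heart, Lama2 is the α chain of the laminin around muscle fibres, whereas Lama4 and Lama5 are the α chains of vessel basement membranes.

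The stretches of DNA around RefSeq starts of Itgb6 (integrin β6) and Lama2 are shown first. In cardiomyocytes, with nuclei as summed, these were the members with the largest log2 ratios between the libraries among those with at least 50 UMIs. Of the promoters of the set that were searched, these were also the only ones with a CArG box, the motif known to bind serum response factor. Each run is 300 bases of RefSeq sequence on GRCm38.p6, from 250 bases before to 50 bases after a RefSeq gene start, with the CArG box in capitals. Both RefSeq starts lie inside the gene models used for the spans, 49.0 kb from the start of that model for Itgb6 and 2.82 kb for Lama2. The Itgb6 stretch is chr2:60673644-60673943 on the minus strand and the Lama2 stretch is chr10:27616893-27617192 on the minus strand.
Itgb6: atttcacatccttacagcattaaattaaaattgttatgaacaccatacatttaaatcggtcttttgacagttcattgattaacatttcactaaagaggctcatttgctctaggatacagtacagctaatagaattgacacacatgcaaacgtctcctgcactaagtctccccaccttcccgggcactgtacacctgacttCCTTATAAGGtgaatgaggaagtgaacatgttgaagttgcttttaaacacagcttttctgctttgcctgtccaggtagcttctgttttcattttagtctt
Lama2: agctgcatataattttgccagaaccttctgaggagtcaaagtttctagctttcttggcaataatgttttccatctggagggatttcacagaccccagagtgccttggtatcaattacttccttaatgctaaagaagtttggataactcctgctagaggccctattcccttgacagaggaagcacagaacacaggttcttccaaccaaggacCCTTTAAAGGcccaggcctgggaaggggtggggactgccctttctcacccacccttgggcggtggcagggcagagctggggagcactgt
The box read CCTTATAAGG in the Itgb6 stretch and CCTTTAAAGG in the Lama2 stretch. Promoter entries existed for 23 of the 36 genes, with 26 entries in all. A CArG box on either strand was in 2 of these 26 entries, against 1.63% of 32851 mouse promoters of the same length. Of the other 4 motifs searched on both strands, TATAAA was in 0 of 26 (13.6% of all promoters), GATAA in 2 (25.4%), CANNTG in 22 (72.3%) and GGGCGG in 12 (35.7%). These matches are a description of letters in a window, and the motifs were searched with the expression values known.

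After filtering, 9522 Control nuclei and 7644 PD-1 inhibitor nuclei remained, with a median of 1012 and 1055 UMIs each. The libraries shared 48 barcodes, 0.471% of the Control barcodes and 0.602% of the PD-1 inhibitor barcodes. Nuclei were clustered without the 36 genes, and 21 of 22 clusters took 1 of 10 cell type names from marker genes. The ECs (endothelial cells) numbered 2806 in Control and 2505 in PD-1 inhibitor, the fibroblasts 2476 and 1970, the cardiomyocytes 1288 and 1096 and the macrophage-like MPs 1256 and 884. The mural cells (pericyte-like and smooth muscle-like nuclei) numbered 587 and 416 and the mesothelial cells 480 and 462. T cells (239 and 192), B cells (175 and 80), adipocytes (154 and 16) and glial cells (29 and 10) were few, so values in them rest on few UMIs. Adipocyte nuclei were mostly from the Control library, and that library cannot be told apart from the condition there. Summed EC markers reached 10253 CPM (UMIs per 1000000 UMIs of the cell type and library) in Control ECs against 739 CPM in Control fibroblasts. All levels below are CPM of the summed nuclei of a type, given as Control then PD-1 inhibitor.

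Most of the set was enriched in some cell type. Of the 36 genes, 34 had at least 50 UMIs in all and could be called enriched in a type, which means at least 2-fold above all other named nuclei in both libraries. Of these 34, 30 were enriched in at least 1 type (88.2%, against 56.6% of the 14343 genes tested), and 14 in more than 1. The other 4 were Itga5, Itgb1, Lama4 and Lamb2, the chains of a broad fibronectin receptor and of widespread laminins. T cells had the highest count with 10 enriched members (9.20% of all genes tested were enriched there), followed by fibroblasts with 7 (7.34% of all genes). ECs had 5 (7.22%), mural cells 5 (4.85%), mesothelial cells 5 (7.56%) and B cells 5 (7.89%). MPs had 4 (10.8%), glial cells 4 (4.24%), cardiomyocytes 3 (9.97%) and adipocytes 1 (6.56%). Lama1 had 16 UMIs in all named nuclei and Itgam, the αM chain of a macrophage receptor, had none.

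**Figure D1:**
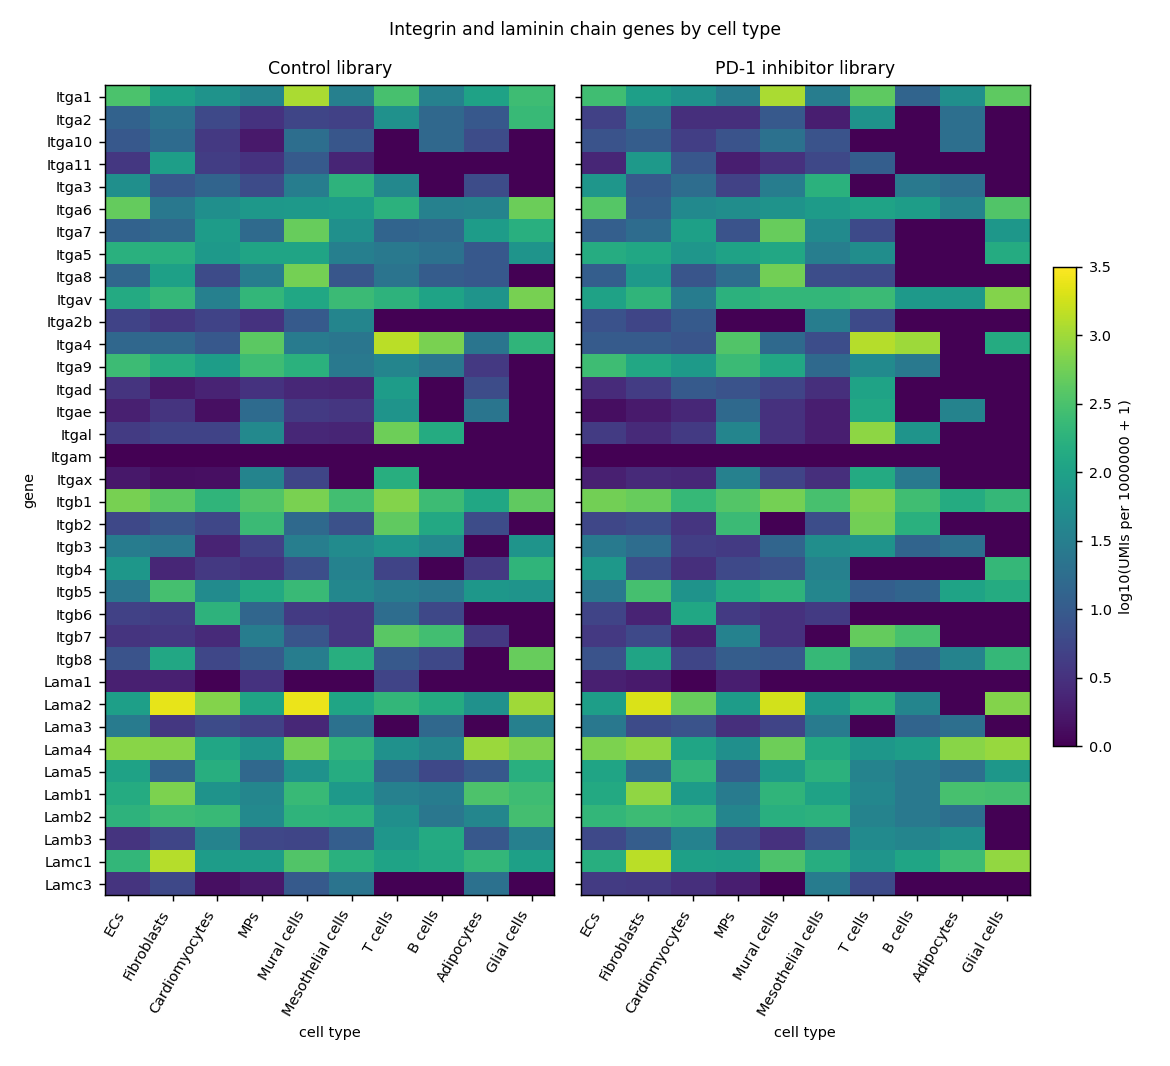
Level of each of the 36 genes (rows) in each of 10 cell types (columns), as log10 of CPM plus 1, with the Control and PD-1 inhibitor libraries side by side. Itgb1 and Lamb2 are filled in most columns, while Itgb6 is highest in cardiomyocytes (182 and 122 CPM) and Itga11 in fibroblasts (92.0 and 78.1 CPM).

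Among the collagen-binding α chains, mural cells had the most Itga1, the α1 chain that binds basement membrane collagen IV, with 1118 and 1125 CPM. ECs had 321 and 263 CPM of Itga1 and T cells 298 and 427 CPM, and neither interval reached that of the mural cells in either library. Itga11, the α11 chain that binds fibrillar collagen, was at 92.0 and 78.1 CPM in fibroblasts and at no more than 10.2 CPM in any other type. The fibroblast nuclei held 91.4% of the Itga11 UMIs in Control and 87.0% in PD-1 inhibitor. Itga2 was highest in glial cells in Control (7 UMIs) and in T cells in PD-1 inhibitor (61.0 CPM from 12 UMIs), with overlapping intervals between the first and second type in each library. Itga10, with 102 and 75 UMIs, was highest in mural cells at 17.6 and 19.2 CPM (12 and 9 UMIs), overlapping the second type in each library. The fibroblast cluster led by Wif1 and Chad, described below, had more Itga10 than mural cells in both libraries.

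The laminin-binding α chains divided by cell type. Itga7, the main laminin receptor chain of muscle, was at 486 and 487 CPM in mural cells and at 86.1 and 96.1 CPM in cardiomyocytes. Itga6 was at 463 (ECs, Control) and 371 CPM (ECs, PD-1 inhibitor), above every other type but glial cells, whose values rest on 16 and 5 UMIs. Itga3 was highest in mesothelial cells at 181 and 170 CPM, with ECs next at 53.6 and 69.0 CPM. Itgb4, which pairs only with α6, had 70.8 and 72.1 CPM in ECs and 192 and 211 CPM in glial cells (6 and 3 UMIs), with overlapping intervals.

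Of the RGD-binding α chains, Itga5 (fibronectin receptor) was similar in ECs, at 167 and 144 CPM, and fibroblasts, at 160 and 122 CPM, with overlapping intervals in both libraries. Itgav, the αV chain that serves several β chains, was highest in glial cells at 607 and 703 CPM (19 and 10 UMIs). Among the larger types it stood at 240 and 204 CPM in mesothelial cells, 215 and 194 CPM in fibroblasts and 204 and 175 CPM in MPs. Itga8 was at 579 and 570 CPM in mural cells and at 97.3 and 74.9 CPM in fibroblasts, the next type. Itga2b, the platelet αIIb chain, had 38.0 and 29.9 CPM in mesothelial cells from 30 and 31 UMIs.

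Itga4 and Itga9 form a subgroup that binds VCAM1, fibronectin and other ligands. Itga4 was at 1386 and 1302 CPM in T cells, 625 and 983 CPM in B cells and 418 and 353 CPM in MPs, and stayed at or below 27.9 CPM in ECs, fibroblasts, cardiomyocytes, mural and mesothelial cells. Itga9 was shared by MPs (254 and 243 CPM) and ECs (252 and 261 CPM), which could not be ordered in either library. Itga4 and Itga9 lie over Cerkl and Gm2415 on the opposite strand, and whether counting used strand is not given in the sources used here.

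With cell types taken whole, the 4 leukocyte α chains with a UMI were highest in T cells in both libraries. Within MPs, the Cd209a cluster described below had more Itgax and Itgae than T cells in Control, from few UMIs. Itgal (αL, the LFA-1 chain) was at 529 and 799 CPM in T cells and 44.1 and 38.7 CPM in MPs. Itgax (αX) was at 155 and 137 CPM in T cells and 37.4 and 33.7 CPM in MPs. Itgae (αE) was at 63.0 and 122 CPM in T cells and Itgad (αD) at 84.0 and 107 CPM, from 15 to 24 UMIs in a library. Itgae was also enriched in adipocytes, at 22.2 and 35.7 CPM from 8 and 2 UMIs, above MPs at 15.7 and 14.9 CPM. Its intervals in T cells and adipocytes overlapped in both libraries. Itgad lies opposite Cox6a2, a cardiomyocyte gene, and its 3 and 18 UMIs in cardiomyocytes cannot be told apart from reads of that gene without strand. For Itgam, 0 UMIs in MPs allow at most 2.24 CPM in Control and 2.98 CPM in PD-1 inhibitor. Gm49368, a same-strand gene model over Itgam, had 19 and 5 UMIs in MPs (14.2 and 4.96 CPM), so reads of Itgam may have been counted under another gene or not at all.

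Among the β chains, Itgb1 was the broadest. It ranged from 119 CPM in adipocytes to 710 CPM in T cells in Control and from 143 to 661 CPM in the same types in PD-1 inhibitor, and the intervals of T cells and mural cells (619 and 581 CPM) overlapped. Itgb2, the leukocyte β2 chain, was at 445 and 570 CPM in T cells and 240 and 244 CPM in MPs. Itgb7, partner of α4 and αE, was at 407 and 473 CPM in T cells and 277 and 302 CPM in B cells, with overlapping intervals. The other αV partners were highest in different types.
Itgb5 was highest in fibroblasts at 293 and 295 CPM, ahead of mural cells at 232 and 190 CPM. Itgb6 was at 182 and 122 CPM in cardiomyocytes, whose nuclei held 90.3% of its UMIs in Control and 91.9% in PD-1 inhibitor. Itgb8 was at 153 and 221 CPM in mesothelial cells and 125 and 111 CPM in fibroblasts, and the 15 and 3 UMIs of glial cells gave 479 and 211 CPM. Itgb3 was highest in T cells at 67.2 and 61.0 CPM (16 and 12 UMIs), with overlap to the second type in each library.

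Of the laminin chains, Lama2 had the most UMIs, followed by Lama4 and Lamc1. Lama2 was at 2530 and 1829 CPM in mural cells and 2362 and 1983 CPM in fibroblasts, and these intervals overlapped in both libraries. Cardiomyocytes had 700 and 479 CPM of Lama2 and ECs 92.4 and 91.6 CPM. Lamc1, the γ1 chain shared by most laminins, was at 1296 and 1358 CPM in fibroblasts, against 351 and 329 CPM in mural cells and 209 and 154 CPM in ECs. Lamb1 was likewise highest in fibroblasts at 636 and 833 CPM. Lama4 was high in ECs (759 and 634 CPM), fibroblasts (734 and 820), mural cells (592 and 527), adipocytes (950 and 749) and glial cells (671 and 914). Adipocytes stood above ECs in Control, and the first types in PD-1 inhibitor, glial cells and fibroblasts, overlapped.
Lama5 was at 157 and 199 CPM in cardiomyocytes, 144 and 175 CPM in mesothelial cells and 102 and 110 CPM in ECs, and cardiomyocytes and mesothelial cells overlapped. Glial cells had 160 and 70.3 CPM of Lama5 from 5 UMIs and 1 UMI. Lamb2 was spread over fibroblasts (253 and 249 CPM), cardiomyocytes (225 and 216 CPM), ECs (182 and 206 CPM) and mesothelial cells (177 and 178 CPM). Control glial cells had 288 CPM of Lamb2 from 9 UMIs, and the 0 UMIs of the 10 PD-1 inhibitor glial nuclei allow up to 211 CPM. Lama3 was low, at 28.0 and 23.9 CPM in ECs and 19.0 and 27.9 CPM in mesothelial cells, which overlapped, and glial cells had 1 UMI in Control. Lamb3 was at 35.3 and 34.3 CPM in cardiomyocytes, and its top type changed from B cells in Control (138 CPM from 29 UMIs) to adipocytes in PD-1 inhibitor (53.5 CPM from 3 UMIs). Lamb3 lies opposite Hsd11b1 and G0s2, so its UMIs may include reads of those genes. Lamc3 was highest in mesothelial cells at 21.5 and 28.9 CPM.

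Levels of different chains were compared after division by the length of the gene, as CPM per kb of gene span, because long genes give more intronic UMIs in nuclei. That UMIs rise in proportion to span was not tested, and the order depends on this division. Without it, for example, Itga6 (463 and 371 CPM) stood above Itga5 (167 and 144 CPM) in ECs. On this scale Itgb1 was the first β chain in ECs, fibroblasts, cardiomyocytes, MPs, mural and mesothelial cells in both libraries. It made up 79.9% and 78.9% of the summed per-kb β level in ECs but 42.3% and 42.5% in MPs, where Itgb2 was close behind (7.37 against 6.77 CPM per kb in Control). In T and B cells Itgb7 was first, with 25.5 and 29.7 CPM per kb in T cells. The first α chain was Itga5 in ECs (7.41 and 6.42 CPM per kb) and fibroblasts (7.10 and 5.43), Itga7 in cardiomyocytes (3.52 and 3.93) and mural cells (19.9 and 19.9), and Itga3 in mesothelial cells (5.60 and 5.25). In MPs, Itga4 (5.38 and 4.55 CPM per kb) and Itga5 (4.86 and 4.59) changed places between the libraries.

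The per-kb order of laminin α chains separated the cell types. Lama4 was first in ECs (5.24 and 4.38 CPM per kb), fibroblasts (5.07 and 5.67) and mural cells (4.09 and 3.64). Lama5 was first in cardiomyocytes (3.18 and 4.01 CPM per kb) and mesothelial cells (2.91 and 3.54). Lama2, the chain with the most UMIs, spans 640 kb and reached 3.69 and 3.10 CPM per kb in fibroblasts, 3.96 and 2.86 in mural cells and 1.09 in Control cardiomyocytes. Without division by span, Lama2 was above Lama5 in cardiomyocytes, at 700 and 479 CPM against 157 and 199 CPM. It was then also above Lama4 in fibroblasts and mural cells. The first β chain was Lamb2 in the 6 types with the most nuclei, from 3.59 CPM per kb in PD-1 inhibitor MPs to 23.5 in Control fibroblasts, and the first γ chain was Lamc1.

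**Figure D2:**
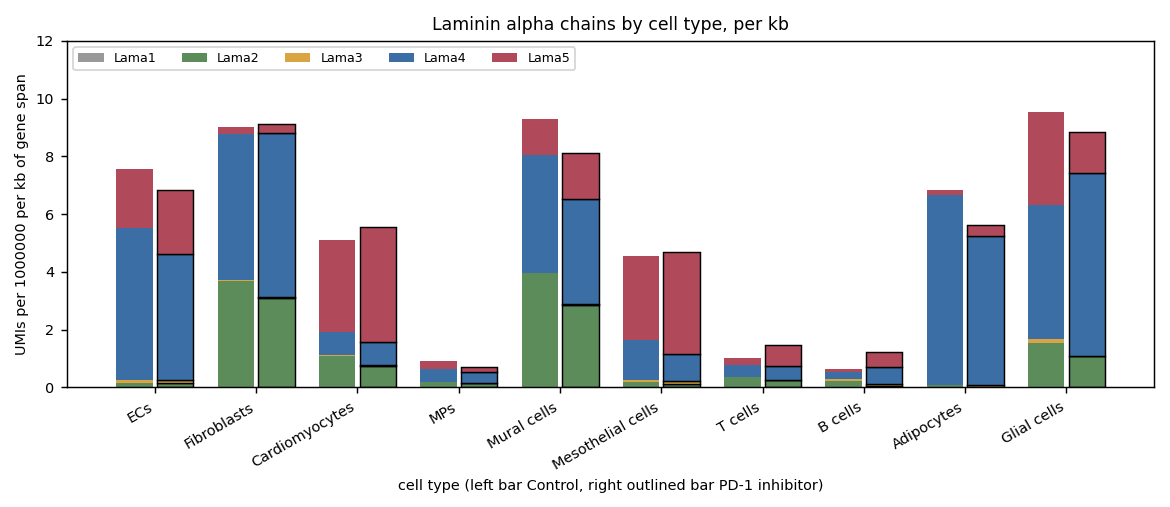
Stacked CPM per kb of gene span of the 5 laminin α chains in each cell type, with the Control library as the left bar and the PD-1 inhibitor library as the right, outlined bar. Lama4 takes most of the bar in ECs (5.24 and 4.38 CPM per kb), and Lama5 most of it in cardiomyocytes (3.18 and 4.01 CPM per kb).

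ECs were not uniform in these genes. Of 5 EC clusters, the capillary-like one (led by Aplnr, 963 and 679 nuclei) had the most Itga1 (617 and 636 CPM) and Itga6 (868 and 820 CPM). The endocardial-like cluster (led by Nrg1 and Sall1, 1387 and 1479 nuclei) had 178 and 132 CPM of Itga1 and 300 and 251 CPM of Itga6, below the capillary-like intervals in both libraries. The lymphatic-like cluster (led by Mmrn1, 236 and 158 nuclei) had the most Lama4, at 1838 and 1476 CPM, and the most Itgb3, at 185 and 141 CPM. Its Itga9, the chain known for lymphatic valves, was at 518 and 512 CPM, beside 504 and 395 CPM in the cluster led by Wnt9b and Hapln1 (96 and 83 nuclei). The arterial-like cluster (led by Sema3g, 124 and 106 nuclei) had the most Lama3, at 302 and 235 CPM, against 28.6 and 20.5 CPM in capillary-like nuclei. It also had 289 and 346 CPM of Lama5 and 232 and 261 CPM of Itgb4. The cluster led by Wnt9b and Hapln1 had the most Itgb1, at 1173 and 1133 CPM. As the 36 genes were kept out of the clustering, these levels did not shape the clusters directly, but they are still descriptions of 1 library a group.

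**Figure D3:**
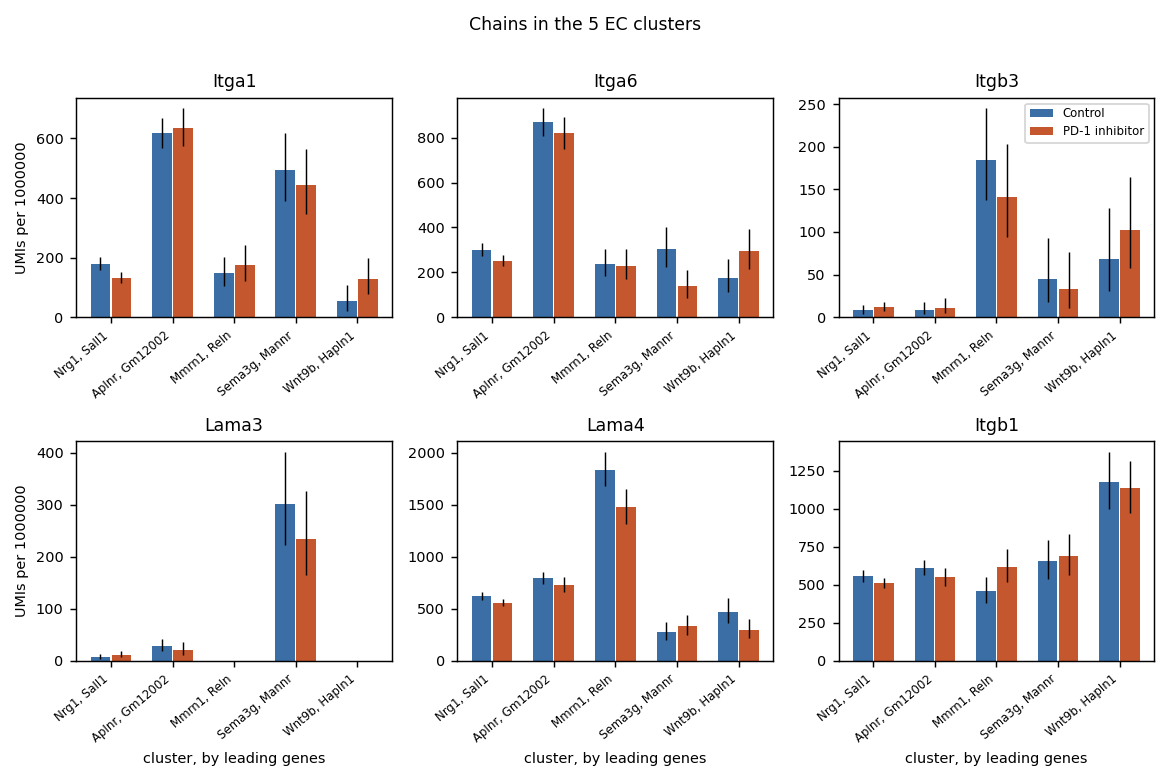
CPM of 6 chains in the 5 EC clusters, with Control as blue and PD-1 inhibitor as orange bars, exact Poisson 95% intervals of counting error as lines, and a separate axis for each gene; an absent bar is 0 UMIs. Itga1 and Itga6 peak in the capillary-like cluster (617 and 868 CPM in Control), Lama4 and Itgb3 in the lymphatic-like cluster (1838 and 185 CPM in Control), and Lama3 in the arterial-like cluster (302 CPM in Control).

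The 4 fibroblast clusters differed in laminin β1 and γ1. The cluster led by Cilp and Cd248 (642 and 713 nuclei) had 861 and 1161 CPM of Lamb1 and 1797 and 1958 CPM of Lamc1. The cluster led by Wif1 and Chad (116 and 88 nuclei) had 12.0 and 38.3 CPM of Lamb1, each from few UMIs, and 198 and 230 CPM of Lamc1. That cluster had the most Itga10, a chondrocyte collagen receptor chain, at 120 and 82.1 CPM, against no more than 15.1 CPM in the other 3. Its Itga8 was at 294 and 76.7 CPM, from 49 and 14 UMIs, and its Lama2 at 1247 and 1933 CPM, opposite in direction to the lower PD-1 inhibitor level of Lama2 in the other 3 clusters. Lama2 was highest in the cluster led by Rgs17, at 2835 and 2391 CPM.

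The mural clusters also differed. Smooth muscle-like nuclei (led by Myh11, 103 and 54 nuclei) had 2078 and 2555 CPM of Itga8, and pericyte-like nuclei (led by Lin7a and Kcnj8, 484 and 362 nuclei) had 175 and 125 CPM. Itga9 and Lama5 showed the same order, with 623 and 548 CPM against 46.6 and 28.7 CPM for Itga9 and 222 and 315 CPM against 16.8 and 26.1 CPM for Lama5. Lama2 and Itga1 had the opposite order. Pericyte-like nuclei had 3086 and 2168 CPM of Lama2 against 464 and 315 CPM, and 1332 and 1246 CPM of Itga1 against 326 and 583 CPM.

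In MPs, the cluster led by Cd209a and Clec9a (163 and 88 nuclei) had 178 and 97.9 CPM of Itgax, 96.2 and 76.9 CPM of Itgae and 159 and 182 CPM of Itgb7. Its Itgax and Itgae were above those of T cells in Control (155 and 63.0 CPM) and below them in PD-1 inhibitor (137 and 122 CPM). All MPs held 50 and 34 UMIs of Itgax and 21 and 15 of Itgae. T cells held 37 and 27 UMIs of Itgax and 15 and 24 of Itgae. These orders rest on few UMIs and were not tested. The macrophage-like cluster led by Ms4a14 (1093 and 796 nuclei) had 11.5 and 23.1 CPM of Itgax, 0.886 and 4.63 CPM of Itgae and 5.32 and 10.4 CPM of Itgb7. Itga9 had the opposite order, at 285 and 266 CPM in macrophage-like nuclei and 86.6 and 105 CPM in the Cd209a cluster.

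The comparison of the libraries asked which of these adhesion genes were higher or lower in hearts given the antibody. A gene was counted where it was at least 1.5-fold higher or lower with an interval that left 0 on the log2 scale, among genes with at least 50 UMIs in the type over both libraries. By this count the set differed little. In ECs, 0 of 20 members were higher and 0 lower, against 5.34% and 3.98% of the 10694 genes counted. In fibroblasts 0 of 21 were higher and 1 lower, against 4.89% and 3.38% of all genes, and in cardiomyocytes 0 and 0 of 17, against 7.01% and 6.80%. In MPs 0 and 0 of 18 were counted, against 5.64% and 5.23%. In mural cells 1 of 15 was higher and 0 lower, against 5.83% and 6.07%, and in mesothelial cells 0 of 18 were higher and 2 lower, against 3.97% and 4.52%. With counts of 0 to 2 in a type, these shares do not set the members apart from all genes.

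In fibroblasts, Itga6 had 73 UMIs in Control and 26 in PD-1 inhibitor, which is 24.4 CPM (19.1 to 30.7) and 10.5 CPM (6.84 to 15.3). The intervals did not overlap. The log2 ratio of PD-1 inhibitor to Control was −1.20 (−1.93 to −0.56), and it was lower in each of the 4 fibroblast clusters, from −0.93 to −1.48. Fibroblasts had little Itga6 beside ECs. Summed EC markers in fibroblast nuclei, 12 of 12 with a UMI, were at 739 and 683 CPM, a log2 ratio of −0.11 (−0.21 to −0.02), and their part in the Itga6 value was not tested.

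In mural cells, Itgav had 83 and 97 UMIs, which is 122 and 207 CPM. The log2 ratio was 0.76 (0.33 to 1.20). Pericyte-like nuclei had 125 CPM (96.8 to 159) and 225 CPM (180 to 277), which did not overlap, and smooth muscle-like nuclei had 111 and 128 CPM, which overlapped. With both libraries given the same mix of mural clusters the log2 ratio was 0.75. Markers of other types in mural nuclei gave ratios of 0.07 (−0.16 to 0.29) for ECs (11 of 12 with a UMI, Egfl7 at 0 in both libraries), 0.18 (0.09 to 0.27) for fibroblasts (10 of 10) and −0.05 (−0.26 to 0.16) for MPs (13 and 12 of 13, Fcgr1 at 0 in PD-1 inhibitor). In their own types the markers were at 10253 and 10039 CPM (ECs), 36368 and 46008 CPM (fibroblasts) and 22512 and 31321 CPM (MPs). The part of these markers in the Itgav value was not tested. In ECs Itgav went the other way, with 137 and 102 CPM (407 and 295 UMIs). The log2 ratio was −0.42 (−0.65 to −0.20), and the value was lower in PD-1 inhibitor in each of the 5 EC clusters.

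In mesothelial cells, Lama2 had 89 and 73 UMIs, which is 113 and 70.3 CPM, and Lama4 had 159 and 139 UMIs, which is 201 and 134 CPM. The log2 ratios were −0.68 (−1.15 to −0.22) for Lama2 and −0.59 (−0.93 to −0.25) for Lama4. Median depth of mesothelial nuclei was 1297.5 UMIs in Control and 1724 in PD-1 inhibitor, and with each nucleus thinned to 500 UMIs the ratios were −0.40 for Lama2 and −0.22 for Lama4. Fibroblast markers in mesothelial nuclei, 10 of 10 with a UMI, were at 7711 and 7531 CPM (log2 ratio −0.03, −0.08 to 0.01), and mural markers, 10 of 10, at 183 and 120 CPM (−0.61, −0.96 to −0.25). In their own types these markers were at 36368 and 46008 CPM (fibroblasts) and 14739 and 16690 CPM (mural cells). Mural cells and fibroblasts are rich in Lama2, and the part of either marker set in these values was not tested. Itgb8 was higher in PD-1 inhibitor mesothelial cells, at 153 and 221 CPM with a log2 ratio of 0.53 (0.20 to 0.86), which is 1.44-fold and under the limit.

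**Figure D4:**
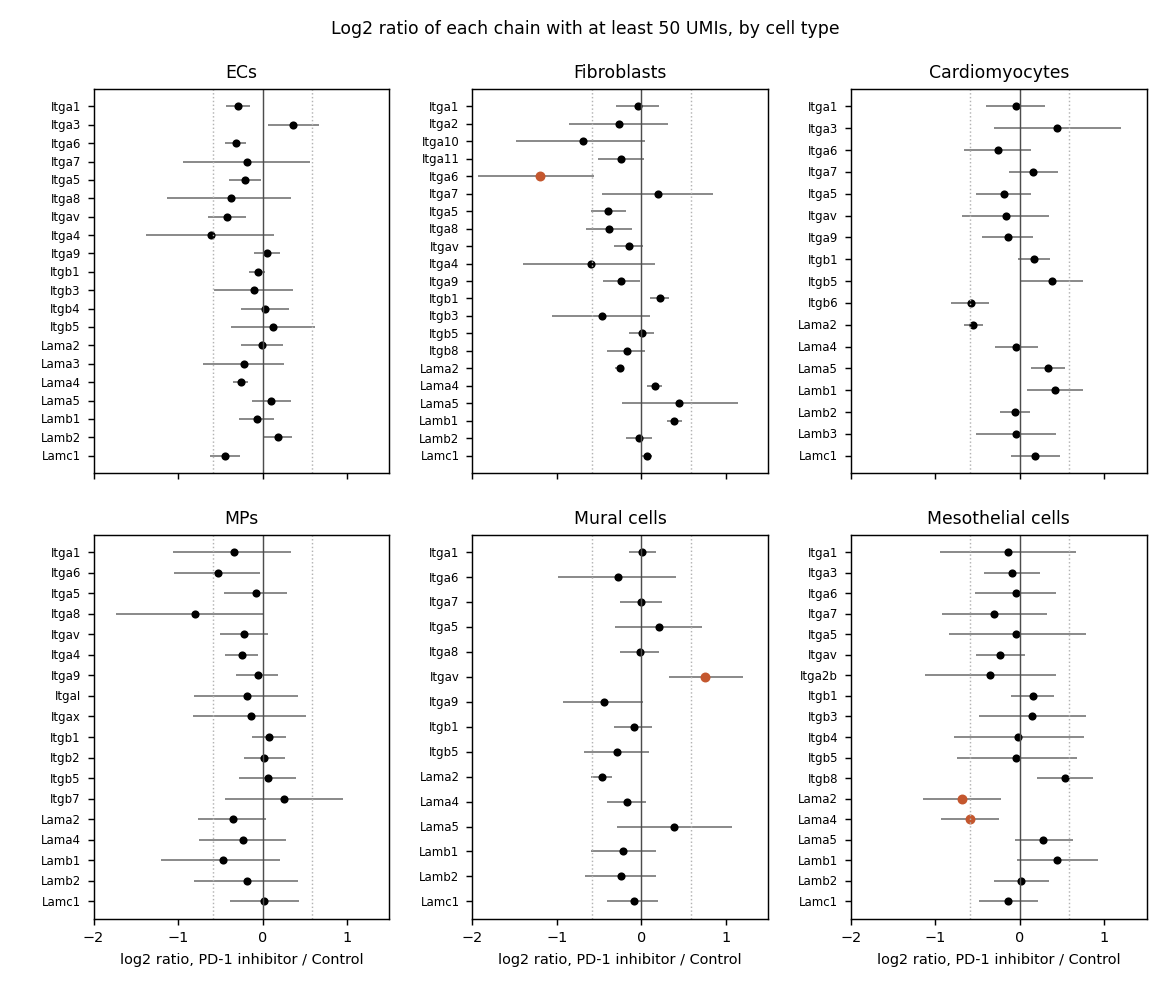
Log2 ratio of PD-1 inhibitor to Control with its 95% counting interval for each member with at least 50 UMIs in 6 cell types. Dotted lines stand at a 1.5-fold difference, and orange marks the 4 values counted as higher or lower in these types: Itga6 in fibroblasts (−1.20), Itgav in mural cells (0.76), and Lama2 (−0.68) and Lama4 (−0.59) in mesothelial cells.

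In cardiomyocytes, with nuclei as summed, the largest log2 ratios were in the chains shown at the start. Itgb6 had 445 and 248 UMIs, which is 182 and 122 CPM. Its log2 ratio was −0.58 (−0.82 to −0.36), just inside the 1.5-fold limit. Lama2 had 1706 and 978 UMIs, which is 700 and 479 CPM. Its log2 ratio was −0.55 (−0.66 to −0.43). With the same mix of cardiomyocyte clusters in both libraries the log2 ratios were −0.35 for Itgb6 and −0.33 for Lama2, and Itga6 (−0.53), Lama5 (0.52) and Itga3 (0.52) were then larger. Fibroblast markers, 10 of 10 with a UMI, were at 1448 and 2217 CPM in cardiomyocyte nuclei, a log2 ratio of 0.61 (0.55 to 0.68). In fibroblasts themselves they were at 36368 and 46008 CPM. Mural markers, 10 of 10, were at 694 and 869 CPM in cardiomyocyte nuclei (0.32, 0.23 to 0.42). The part of either marker set in these values was not tested. Lama5 was higher, at 157 and 199 CPM with a log2 ratio of 0.33 (0.13 to 0.54). Lamb1 was at 61.5 and 82.3 CPM (0.42, 0.09 to 0.75) and Itgb5 at 48.0 and 62.3 CPM (0.38, 0.00 to 0.75). Lamb1 and Itgb5 are enriched in fibroblasts, and the part of fibroblast RNA in their values here was not tested either.

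In ECs the intervals of 6 members lay below 0 and those of 2 above, against 15.1% and 15.4% of all genes counted. Lamc1 was at 209 and 154 CPM (log2 ratio −0.44, −0.62 to −0.27), Itga6 at 463 and 371 CPM (−0.32, −0.44 to −0.20), Itga1 at 321 and 263 CPM (−0.29, −0.43 to −0.15), Lama4 at 759 and 634 CPM (−0.26, −0.35 to −0.17) and Itga5 at 167 and 144 CPM (−0.21, −0.40 to −0.02). Itga3 was at 53.6 and 69.0 CPM (0.36, 0.06 to 0.67) and Lamb2 at 182 and 206 CPM (0.18, 0.01 to 0.35). The PD-1 inhibitor ECs held relatively fewer capillary-like nuclei, where Itga1 and Itga6 were highest. With the same mix of EC clusters the ratios were −0.09 for Itga1, −0.15 for Itga6, −0.18 for Lama4 and −0.38 for Lamc1, so of these 4 genes Itga1 and Itga6 differed most from the values as summed. The intervals of Itga3 (0.30, −0.01 to 0.60) and Lamb2 (0.16, −0.01 to 0.33) included 0 with the same mix. Within capillary-like nuclei Itga6 gave −0.08 (−0.24 to 0.08) and within arterial-like nuclei, from 47 and 21 UMIs, −1.12 (−1.96 to −0.37).

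Fibroblast laminins had ratios on both sides of 0. Lama2 was at 2362 and 1983 CPM (log2 ratio −0.25, −0.31 to −0.20), while Lamb1 was at 636 and 833 CPM (0.39, 0.30 to 0.48), Lama4 at 734 and 820 CPM (0.16, 0.07 to 0.25) and Lamc1 at 1296 and 1358 CPM (0.07, 0.00 to 0.13). The Lamb1 value was 0.35 with the same mix of clusters, and in the Cilp cluster it was 0.43 (0.30 to 0.57). Among integrins, Itga5 gave −0.39 (−0.60 to −0.18), Itga8 −0.38 (−0.65 to −0.11), Itga9 −0.24 (−0.45 to −0.02) and Itgb1 0.22 (0.10 to 0.33). In mural cells Lama2 was at 2530 and 1829 CPM (−0.47, −0.59 to −0.35), with lower values in PD-1 inhibitor in both mural clusters. In MPs Itga6 was at 73.3 and 50.6 CPM (−0.53, −1.05 to −0.03) and Itga4 at 418 and 353 CPM (−0.24, −0.44 to −0.05).

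In the small immune types, Itgal in T cells had 126 and 157 UMIs (529 and 799 CPM), a log2 ratio of 0.59 (0.25 to 0.94). Itga4 in B cells had 131 and 78 UMIs (625 and 983 CPM), a log2 ratio of 0.66 (0.23 to 1.07). Both met the 1.5-fold count, as 1 higher and 0 lower of 10 members in T cells (7.51% and 8.93% of 2184 genes) and 1 higher and 0 lower of 3 in B cells (8.16% and 9.88% of 1286 genes). Itga4 in T cells stood at 1386 and 1302 CPM.

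Log2 ratios followed gene length across all genes, and many members are long. Genes were split by span into 5 classes of equal size. In ECs the median log2 ratio was 0.22 in the class of shortest genes and −0.17 in the class of longest genes, in fibroblasts 0.20 and −0.17, in cardiomyocytes 0.26 and −0.27, in MPs 0.18 and −0.20 and in mural cells 0.21 and −0.20. In mesothelial cells it was 0.05 and −0.02. The median of the members was −0.14 in ECs (0.01 for all genes), −0.17 in fibroblasts (0.00), −0.04 in cardiomyocytes (−0.01), −0.18 in MPs (−0.03), −0.09 in mural cells (−0.02) and −0.05 in mesothelial cells (0.00). Centred on the median of the same span class, Lama2 gave −0.08 in fibroblasts and −0.28 in cardiomyocytes, Itgb6 −0.32 in cardiomyocytes, Itga1 −0.12 and Itga6 −0.15 in ECs, Itga6 −1.03 in fibroblasts and Itgav 0.85 in mural cells. On that scale the median of the members in cardiomyocytes was 0.22, and Itgb5 (0.64), Lamb1 (0.51) and Lamc1 (0.45) exceeded Itgb6 and Lama2 there. Itgb5, Lamb1 and Lamc1 are enriched in fibroblasts, whose markers were also higher in PD-1 inhibitor cardiomyocyte nuclei and in PD-1 inhibitor fibroblasts. The part of fibroblast RNA in these values was not tested.

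**Figure D5:**
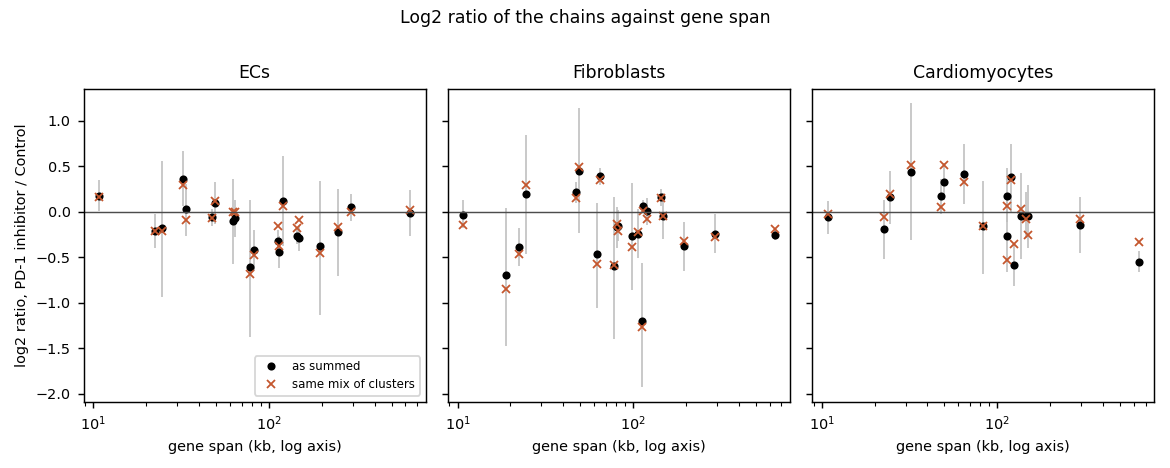
Log2 ratio of PD-1 inhibitor to Control against gene span in kb (log axis) for the members in ECs, fibroblasts and cardiomyocytes, with nuclei as summed in black, with the same mix of clusters as orange crosses, and with the 95% counting intervals of the summed values as grey lines. Itga6 in fibroblasts lies lowest in its panel (−1.20 as summed and −1.27 with the same mix), and Lama2 in cardiomyocytes lies at −0.55 and −0.33.

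The study drew integrin complexes between pairs of cell types, in diagrams of ligand-receptor interactions called present or absent in each group. The chains concerned were read in the receiving types. The values here are ratios of summed UMIs, which is a different measure from such calls. For α5β1 in cardiomyocytes, Itga5 was at 77.9 and 68.1 CPM (log2 ratio −0.19, −0.52 to 0.13) and Itgb1 at 194 and 218 CPM (0.17, −0.02 to 0.36). For αVβ1 in MPs, Itgav was at 204 and 175 CPM (−0.22, −0.50 to 0.06) and Itgb1 at 350 and 370 CPM (0.08, −0.12 to 0.28). The intervals of these 4 values included 0. For α9β1 in fibroblasts, Itga9 was at 145 and 123 CPM and Itgb1 at 419 and 487 CPM, with intervals that left 0 in opposite directions, although the Itga9 ratio of −0.24 was −0.06 when set against genes of like span. Of the partners, fibrillin-1 (Fbn1) was at 1546 and 1553 CPM in fibroblasts (0.01, −0.06 to 0.07), fibronectin (Fn1) at 249 and 173 CPM (−0.53, −0.70 to −0.35) and Vcam1 in ECs at 584 and 625 CPM (0.10, 0.00 to 0.20). The share of fibroblast nuclei with an Fn1 UMI was 11.9% and 12.6%, so it was not lower in PD-1 inhibitor.

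Other genes of the same adhesion system were read from lists of 31 integrin adaptors (proteins that tie integrin tails to actin and kinases), 15 basement membrane partners and 20 integrin ligands, by the same 1.5-fold count. The genes counted are named here because they were few, and they were picked out after their values were seen. Ratios of list genes, here and below, are as summed and were not centred on the span class. The part of gene span in them was not tested. In ECs, against 5.34% higher and 3.98% lower of all genes, the lower genes were Apbb1ip of 29 adaptors (−1.10), Col15a1 of 14 partners and Ccn1 of 16 ligands, and 0 were higher. In fibroblasts, against 4.89% and 3.38%, Sharpin of 28 adaptors was higher (0.73) and 0 of 15 partners were counted. Of 16 fibroblast ligands, Icam2 was higher (0.72) and Ccn1, Vtn (−1.28) and Tnc (−0.74) were lower.

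In cardiomyocytes, against 7.01% higher and 6.80% lower of all genes, Tln2 (−0.67) and Parvb (−0.64) were lower of 27 adaptors and Col4a5 (−0.86) and Ntn4 (−0.64) of 13 partners, while Emilin1 (1.24) and Fbln5 (0.75) were higher of 14 ligands. In MPs, against 5.64% and 5.23%, Actn4 (−0.72), Fermt2 (−0.62) and Rsu1 (−0.60) were lower of 24 adaptors. Of 11 MP partners, nidogens Nid1 (0.60) and Nid2 (0.71) were higher and Col4a4 (−0.99) and Agrn (−0.97) lower, and of 10 ligands Ccn1 (−1.15), Fbn1 (−0.67) and Ltbp1 (−0.66) were lower. In mural cells, against 5.83% and 6.07%, the lower genes were Nedd9 of 21 adaptors (−1.36), Col15a1 of 14 partners (−0.79) and Ccn1 (−2.48) and Ccn2 (−0.63) of 12 ligands. In mesothelial cells, against 3.97% and 4.52%, Vcl was higher (0.64) and Tns1 lower (−0.74) of 26 adaptors. Of 15 mesothelial partners, Col18a1 was higher (0.99) and Col4a3 (−0.72), Col4a6 (−0.68) and Col15a1 (−0.79) lower, and of 10 ligands Vcam1 was higher (1.02) and Ccn1 (−2.30) and Ccn2 (−0.88) lower. Ccn1, an immediate-early matrix protein, was lower in 5 of the 6 types.

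Among list genes with at least 200 UMIs in the type, the 3 with the largest log2 ratio were read in ECs and fibroblasts. For the adaptors all were under the 1.5-fold limit. In ECs, Nedd9, a docking protein, gave −0.45 (−0.61 to −0.30), vinculin (Vcl) −0.43 (−0.61 to −0.25) and focal adhesion kinase (Ptk2) −0.35 (−0.47 to −0.22). In fibroblasts Ptk2 gave −0.43 (−0.60 to −0.26), Vcl −0.43 (−0.66 to −0.20) and paxillin (Pxn) −0.33 (−0.66 to −0.01). Among basement membrane partners in ECs, Col15a1 was at 119 and 77.7 CPM (−0.62, −0.87 to −0.37), the 1 partner counted as lower there, Col4a1, a chain of collagen IV, at 550 and 425 CPM (−0.37, −0.48 to −0.27) and nidogen-2 (Nid2) at 72.2 and 97.1 CPM (0.43, 0.17 to 0.69). In fibroblasts Col4a3 gave −0.54 (−0.71 to −0.36), netrin-4 (Ntn4) −0.36 (−0.57 to −0.16) and Col4a4 −0.26 (−0.40 to −0.13). The largest difference of the ligands was in Ccn1. It was at 528 and 92.6 CPM in ECs (−2.51, −2.70 to −2.32) and 319 and 86.9 CPM in fibroblasts (−1.87, −2.09 to −1.66). Icam2, a ligand of αLβ2, was at 316 and 434 CPM in ECs (0.46, 0.34 to 0.58) and Mfge8 at 143 and 192 CPM (0.42, 0.24 to 0.61). Fbln5 was at 208 and 302 CPM in fibroblasts (0.54, 0.38 to 0.70).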

How the data were processed

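Single-nucleus RNA-seq was read from 1 Control and 1 PD-1 inhibitor library. The deposited matrices hold raw UMI counts (whole numbers, not normalized by the authors). They hold only barcodes with at least 500 UMIs, the lowest total in each library. The submitters' processing notes name GRCm38 and mm10. Aligner, counting software, strand setting and barcode calling are not given in the sources used here. The libraries held 10197 and 7967 barcodes with 13177525 and 10875248 UMIs.

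Nuclei needed 200 genes and at most 20% mitochondrial UMIs (83 and 15 removed), and 592 and 308 doublets called by Scrublet were left out. Log values per 10000 UMIs of 2000 variable genes, without the 36 genes (9 of them would have been variable), were scaled, capped at 10, and clustered by Leiden (resolution 1, 30 components, 15 neighbours). Scaling was chosen after an unscaled clustering had left the largest fibroblast cluster unnamed. Clusters were named from marker lists, and 1 cell-cycle cluster of 32 and 13 nuclei stayed unnamed. UMIs were summed per type and library. Intervals are exact Poisson (CPM) or conditional binomial (log2 ratio, 0.5 UMI added to each sum), at 95%. Where a sum of 0 is compared, its limit is 3 UMIs. Gene spans came from a GENCODE vM21 annotation of GRCm38. On simulated EC counts of 10694 genes, 94.0% of 2-fold and 100% of 4-fold differences were recovered and 1.27% of unchanged genes were counted. The simulated counts held Poisson error only, with equal totals and no difference between animals or by gene span. These shares therefore check the counting and are not error rates for the real libraries. Named genes were the top type of each member with at least 200 UMIs (28 members), each member counted as higher or lower, the study's integrin chains, and, from each list, the 3 genes of at least 200 UMIs with the largest absolute ratio in ECs and in fibroblasts. Members, lists and motifs were chosen with earlier results of these data known. Python 3.11, scanpy 1.11.5, leidenalg 0.10.2, numpy 2.4.6 and scipy 1.17.1 were used. Levels in single cardiomyocyte clusters are not reported here.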

Additional observations from a re-analysis of the deposited data

Results flagged for a closer look

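Itgav, the integrin αV chain, had log2 ratios of PD-1 inhibitor to Control in opposite directions in different cell types. The ratio was 0.76 in mural cells and −0.42 in ECs, each with a counting interval that left 0. With 1 library per condition, this difference between the cell types was not tested.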

How the results depend on the processing

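No paired analysis was possible because each group has 1 library with replicate number 1. Across 13 alternatives, 269 counts and medians stayed the same (counts within 1.5 times) and 44 moved; of the values of single genes, 261 stayed the same, 26 moved and 7 reversed. The counts are small, so a change of 1 gene moves them, and the causes were not tested. With a fold limit lower than 1.5, ECs had 1 member higher and 2 lower, fibroblasts 1 and 3, cardiomyocytes 3 and 2, with 1 lower in MPs, 1 lower in mural cells and 1 higher in mesothelial cells. With a minimum of 20 UMIs, 1 was lower in ECs, 1 higher in fibroblasts, 1 higher in cardiomyocytes, 1 lower in MPs and 1 lower in mural cells. With doublets kept, 2 were lower in ECs, 3 in MPs and 1 in mesothelial cells. With at least 500 genes per nucleus, 2 were lower in fibroblasts, 1 in cardiomyocytes, 1 in MPs and 1 in mesothelial cells, and with at most 5% mitochondrial UMIs 1 was lower in mesothelial cells. With nuclei thinned to 500 UMIs, 1 was lower in MPs, 1 lower in mural cells, and 0 lower and 1 higher in mesothelial cells. Centred on the same span class, 2 were lower in fibroblasts, 1 higher in cardiomyocytes and 1 lower in mesothelial cells. With the same mix of clusters 2 were lower in fibroblasts. Leiden resolution 0.5 gave 1 lower in cardiomyocytes, resolution 2 gave 1 lower in cardiomyocytes and 2 in MPs, and members kept among the clustering genes gave 1 lower in cardiomyocytes. Of enriched members, ECs had 3 in place of 5 at resolution 2, at most 5% mitochondrial UMIs, doublets kept and thinned nuclei. At a fold of 4, ECs had 2, cardiomyocytes 1, mural cells 3, mesothelial cells 3, B cells 2 and glial cells 2.

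The 4 members counted as higher or lower in the 6 types with most nuclei kept their direction in 10 or 11 alternatives each. Itga6 in fibroblasts ranged from −1.33 to −1.03, Itgav in mural cells from 0.74 to 0.85, Lama2 in mesothelial cells from −0.76 to −0.40 and Lama4 there from −0.60 to −0.22, the last with thinned nuclei. At resolution 0.5 and with at least 500 genes per nucleus, the cluster led by Myh11 was unnamed. Mural cells were then pericyte-like nuclei only. The median of the members in cardiomyocytes ranged from −0.06 to 0.22. The reversals were in the log2 level of the top type over the next, and each was small. They were −0.14 for Itga6 in glial cells and −0.03 for Lama2 in mural cells with doublets kept, −0.01 for Itga9 in ECs at resolution 2, and, with thinned nuclei, −0.02 for Itga9 in ECs, −0.24 for Lama4 in adipocytes, −0.01 for Lama5 in cardiomyocytes and −0.13 for Lamb2 in fibroblasts. Depth limits values below 50 UMIs most, which includes most values in glial cells and adipocytes.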
